A study of Mus musculus with 768 samples.

Results

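The cytosolic ribosomal protein genes encode the proteins of the small and large subunits of the ribosome in the cytosol. They were taken by gene name, as the Rps and Rpl genes with Rpsa and the stalk genes Rplp0, Rplp1 and Rplp2, without pseudogene names and without the Rps6k kinases. The rule found 84 genes among 23997 gene names, 33 of the small-subunit type and 51 of the large-subunit type. Measured values played no part in the rule, and the gene Rpl36al falls outside it by its name.

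Single cells of the inguinal mammary glands of C57BL/6 mice were profiled by Smart-Seq2, which reads transcripts over their whole length and makes 1 library per sorted cell. Both groups carried WAP-CRE, a Cre recombinase driven by the promoter of the milk gene Wap, whose use is mostly limited to alveolar luminal cells of pregnancy and lactation. The control group was WAP-CRE; R26-tdTomato, in which Cre turns on a red reporter from the Rosa26 locus. The second group was WAP-CRE; R26-N1ICD-EGFP, in which Cre turns on the intracellular, active part of the receptor Notch1 with a green reporter. Both were sampled after what the design text gives as a lactation of 3 to 4 months, and sorted cells were positive for GFP or tdTomato. Each genotype filled 1 plate of 384 wells and the labels name no animal, so genotype, animal and plate cannot be told apart. Each plate was 1 sample, and no p-value is given for any difference. After a filter of at least 50000 reads and 1000 genes, 617 cells were kept, from 86.98% of control wells and 73.7% of N1ICD-EGFP wells, with 50048 to 608476 and 51736 to 615615 reads per cell. The libraries carry no molecular identifiers, so copies of the same molecule can be counted more than once. The 95% intervals given below treat each read as an independent draw. They leave out such copies and the spread between cells, animals and plates, and are therefore too narrow.

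A ribosome carries 1 copy of nearly every ribosomal protein, and the genes for these proteins are among the most strongly transcribed in growing cells. Their mRNAs belong to the TOP class: they begin with a terminal oligopyrimidine tract, an unbroken run of C and T (in DNA letters) at the cap, through which mTOR signalling and the RNA-binding protein Larp1 control their translation and stability. The transcription factor Myc and RNA polymerase I, which makes ribosomal RNA, act on the same assembly line. In the lactating mammary gland, secretory alveolar cells make large amounts of milk protein on ribosomes, while hormone-sensing luminal cells, which carry the oestrogen and progesterone receptors, signal to their neighbours and make little milk.

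The sequence at the start of the genes is shown for those on which the results below turn. RefSeq start windows (GRCm38.p6) were found for 63 of the 84 genes, with 75 annotated starts. Each line gives 30 bases read 5′ to 3′ on the gene's own strand, and the capitals mark the longest run of C and T within 50 bases of the annotated start. A marked run need not lie at the cap. Counted from the annotated start, runs began at -22 in Rps27l and Rps25, -32 in Rpl7l1 and -15 in Rps15a, and ended before it. They began at 22 in Rps7 and at 40 in Rps4x and Rpl41. In Rps9, Rpl22l1, Rpl18, Rpl15 and Rpl27a they began at -6 to 1. The first set holds genes that were among the most reduced in hormone-sensing cells.
Rps7 (chr12:28635911-28635940, minus strand): ctgtccccaCCTCTTTTCTTCCgccacccg
Rps9 (chr7:3704024-3704053, plus strand): caaccgccttgTCTCTCTTTgtctcgggcc
Rpl22l1 (chr3:28805499-28805528, plus strand): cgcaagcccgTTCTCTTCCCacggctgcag
Rps4x (chrX:102189342-102189371, minus strand): cgcgcagcctccgaccctaaTTTCTTCgtt
The second set holds genes at 50 CPM or more whose level in hormone-sensing cells was nearest to, or above, that in the other luminal cells.
Rpl18 (chr7:45718062-45718091, plus strand): tcgcaggccgCTCTTTCCCCgcccactccg
Rpl41 (chr10:128549119-128549148, minus strand): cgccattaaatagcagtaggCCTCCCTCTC
Rpl15 (chr14:18270968-18270997, minus strand): gagaaagCCTTCTTCCTTTCCTCTggcggc
Rps27l (chr9:66946053-66946082, plus strand): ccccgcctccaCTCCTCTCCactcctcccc
Rpl7l1 (chr17:46782671-46782700, minus strand): cgtcgaggcgggCCTCTCTaccccgcccgg
The third set holds genes at 50 CPM or more that stood furthest from the others between plates or in leukocytes.
Rps15a (chr7:118116143-118116172, minus strand): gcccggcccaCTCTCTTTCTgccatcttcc
Rps25 (chr9:44407684-44407713, plus strand): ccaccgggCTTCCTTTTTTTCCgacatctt
Rpl27a (chr7:109519186-109519215, plus strand): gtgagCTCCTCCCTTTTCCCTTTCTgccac
The runs measured 13 bases in Rps7, 9 in Rps9, 10 in Rpl22l1 and 7 in Rps4x, against 10 in Rpl18, 10 in Rpl41, 17 in Rpl15, 9 in Rps27l and 7 in Rpl7l1. Long and short runs thus stood in both of these sets. Rps27l has 2 annotated starts, and the window shown is the one with the longer run. The run of Rpl41 reached the edge of the searched window, so 10 bases is a lower bound for it.

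A run of at least 8 pyrimidines stood within 50 bases of the start in 77.3% of the ribosomal protein gene starts, against 35.7% of all 32851 starts in the RefSeq table. The motif CTTCC on the gene's strand stood in 44% against 19.5% in the same window. Over 300 bases and both strands, CCGGAAG, a form of the motif bound by Ets factors, was present in 36% against 8.86%. AAGATGGC, a form of the motif bound by YY1, was present in 10.7% against 2.75%. In the comparison of hormone-sensing with other luminal cells described below, the 43 measured genes with a run of 8 or more had a median log2 ratio of -0.94 (-1.54 to 0.41), and the 9 without had one of -0.88 (-1.33 to 0.23). A relation with the run was not tested.

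Cells were grouped by clustering each plate without the ribosomal protein genes, and clusters were named from marker genes. A progenitor/secretory class of luminal-like cells, 406 in number, made up 71.6% of the kept control and 59.01% of the kept N1ICD-EGFP cells and was high in progenitor markers such as Kit and Elf5 and in milk genes. A hormone-sensing luminal-like class, with 64 control and 7 N1ICD-EGFP cells, carried Esr1, Pgr and Prlr. The hormone-sensing markers summed to 14242 CPM, counts scaled to the same total in each class, in control hormone-sensing cells and to 191.96 CPM in control progenitor/secretory cells. Leukocyte-like cells numbered 24 in the control plate, as 1 mixed cluster, and 48 in the N1ICD-EGFP plate, as 21 B, 8 T or NK and 19 macrophage-like cells. The remaining cells were 7 basal-like cells of the control plate and 61 cells of the N1ICD-EGFP plate in unnamed clusters. These unnamed clusters were also raised in progenitor markers such as Kit and Elf5.

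Ribosomal protein genes took a smaller share of the reads in hormone-sensing cells than in progenitor/secretory cells, on both plates. In the control plate the share ranged from 0.578 to 3.54% over the progenitor/secretory cells with a median of 1.996%, and from 0.467 to 2.18% over the hormone-sensing cells with a median of 1.07%. Of the 64 hormone-sensing cells, 63 lay under the progenitor/secretory median and 62 under its lower quartile of 1.71%. Summed over cells, the share was 2.03% (exact interval 2.02 to 2.03) against 1.09% (1.08 to 1.09), 1.87-fold lower in hormone-sensing cells. In the N1ICD-EGFP plate the 7 hormone-sensing cells held 0.622, 0.786, 0.976, 1.09, 1.18, 1.29 and 1.59%. All of them lay under the lower quartile (2.03%) of the progenitor/secretory cells, whose median was 2.39%. A share is relative to the rest of the RNA read, so fewer ribosomal protein transcripts and more of other transcripts cannot be told apart.

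**Figure D1:**
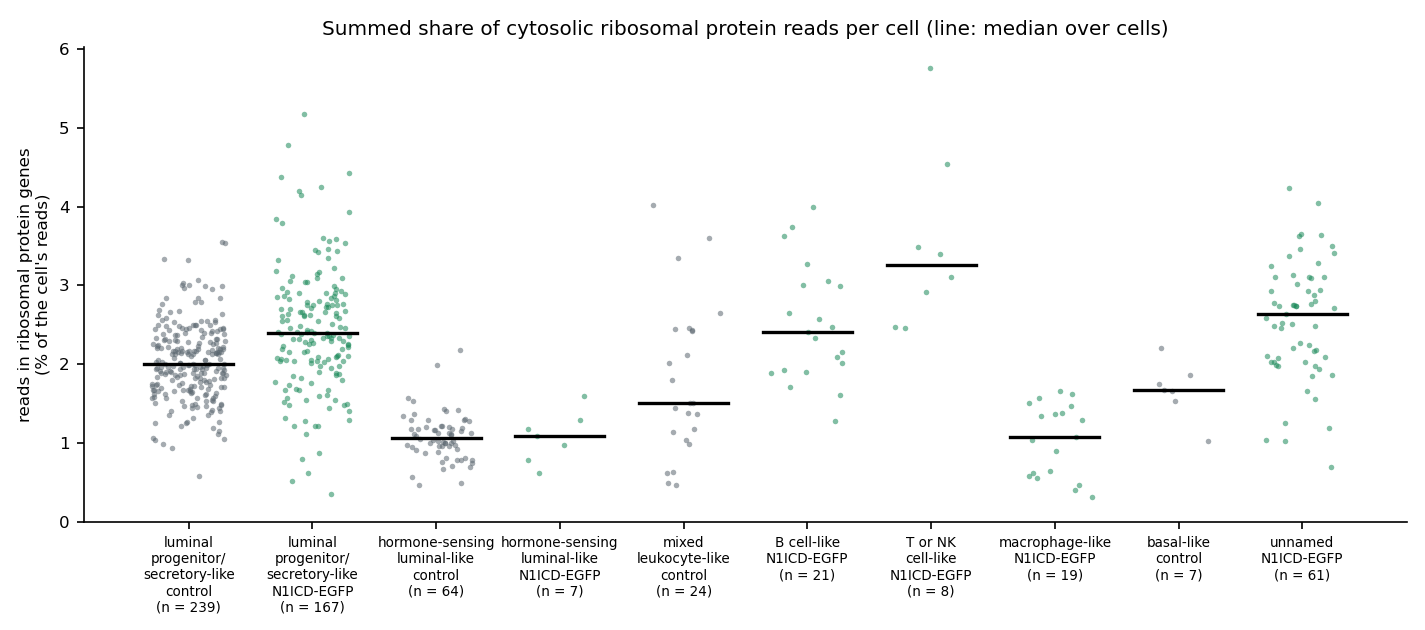
Share of each cell's reads that fell on the 84 ribosomal protein genes (vertical axis, %), by plate and cell class, with 1 point per cell and a line at the median. Hormone-sensing and macrophage-like cells sit low (medians 1.07 to 1.09%), progenitor/secretory cells at 1.996% on the control plate against 2.39% on the N1ICD-EGFP plate, and T or NK-like cells highest at 3.26%.

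The lower share was also present at a matched number of genes read. Hormone-sensing cells had more genes read than progenitor/secretory cells (medians 5404 and 3419), and milk genes took 3.91% of the reads in the median progenitor/secretory cell and 0.0047% in the median hormone-sensing cell. With milk genes left out, the median shares were 2.08% and 1.07%. Among cells with 5000 to 6000 genes, 8 progenitor/secretory cells had a median of 1.81% (1.39 to 2.19) and 38 hormone-sensing cells one of 1.04% (0.762 to 1.36), with no overlap. That interval was picked after seeing the data. Among cells with 4000 to 5000 genes the classes overlapped, at 1.98% (1.19 to 3.03) in 33 and 1.13% (0.692 to 2.18) in 15 cells. Across all cells of each class in this plate the share and the read total had Spearman correlations of 0.03 (progenitor/secretory) and 0.09 (hormone-sensing).

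Proteins of both subunits shared in the difference. Small-subunit genes took a median of 0.967% of the reads of control progenitor/secretory cells and 0.498% of those of hormone-sensing cells, and large-subunit genes took 1.04% and 0.577%. Within a class the shares of the subunits went together from cell to cell, with a Spearman correlation of 0.74 over the control progenitor/secretory and 0.88 over the 64 hormone-sensing cells. The cells of a class share a plate, and both shares are taken of the same read total.

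Gene by gene, the reduction in control hormone-sensing cells was broad. Of 68 ribosomal protein genes at 5 CPM or more in either class, 48 were lower by over 1.5-fold, 22 of 31 small-subunit and 26 of 37 large-subunit genes. None was higher by over 1.5-fold. Over all genes measured in the same way, 30.6% were lower and 27.1% were higher. The median log2 ratio, taken on CPM plus 1, was -0.90 for the ribosomal protein genes and -0.02 for all genes. The other 16 ribosomal protein genes lay under 5 CPM in both classes and were not counted. Rpl36al, outside the name rule, was also not counted. It was higher in hormone-sensing cells, at 81.7 CPM against 47.2 CPM in progenitor/secretory cells. In the N1ICD-EGFP plate, with its 7 hormone-sensing cells, 58 of 69 were lower and 3 higher, against 47.2% and 28.1% of all genes.

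Among genes at 50 CPM or more, those furthest below the others in hormone-sensing cells came from both subunits. Rps4x, an X-linked small-subunit protein, ranged from 0 to 620 CPM per cell with a median of 234.04 in progenitor/secretory cells and from 8.74 to 226.2 with a median of 95.1 in hormone-sensing cells. Summed over cells, it stood at 250 and 99.2 CPM, a log2 ratio of -1.33. Rpl32, a large-subunit protein widely used as a reference gene, ranged from 13.5 to 1337 CPM with a median of 419, and from 30.2 to 360.6 with a median of 155.6. Summed, Rpl32 stood at 432 and 163.5 CPM (log2 -1.40). All 64 hormone-sensing cells lay under the progenitor/secretory median for each of Rps4x and Rpl32, although the ranges overlapped. Rps9, a small-subunit protein that binds ribosomal RNA early in assembly, also lay under that median in 64 of 64 cells, and was picked after its values were seen. Rps21 stood at 125.97 and 50.1 CPM and Rps7 at 69.3 and 27.3 CPM, both with a log2 ratio of -1.31. Rpl22l1, a paralog of Rpl22, stood at 97.2 and 36.2 CPM (-1.40).

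Of the 68 measured ribosomal protein genes, 20 stayed within 1.5-fold. The highest ratio of each subunit type was in a weakly read gene. Rpl21 stood at 8.94 CPM in progenitor/secretory and 12.4 CPM in hormone-sensing cells (log2 0.43), and Rps23 at 4.45 and 6.25 CPM (0.41). The genes described next stood at 50 CPM or more. Rps27l, a paralog of Rps27 known as a p53 target, ranged from 0 to 698 CPM with a median of 107.8 in progenitor/secretory cells and from 8.74 to 494 with a median of 147.3 in hormone-sensing cells. Summed, Rps27l stood at 132.8 and 153.5 CPM (log2 0.21). Rpl41, whose product is the shortest ribosomal protein, stood at 75.03 and 78.6 CPM (0.07) and was read in 64 of 64 hormone-sensing cells. Rpl18 stood at 78.05 and 75.2 CPM (-0.05). For Rps27l, Rpl41 and Rpl18 the classes overlapped over most of their range.
Among members at 50 CPM or more, the others nearest to or above 0 were read in fewer cells. Rpl7l1, a paralog of Rpl7, was read in 38.5% of progenitor/secretory and 67.2% of hormone-sensing cells and stood at 76.9 and 90.1 CPM (0.23). Rpl15, a large-subunit protein, was read in 43.9% and 75% of cells and stood at 108.8 and 100.9 CPM (-0.11). Without possible doublets, taken as cells with many genes, the ratio of Rpl7l1 turned to -0.74, with 31 of the 64 hormone-sensing cells left.

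**Figure D2:**
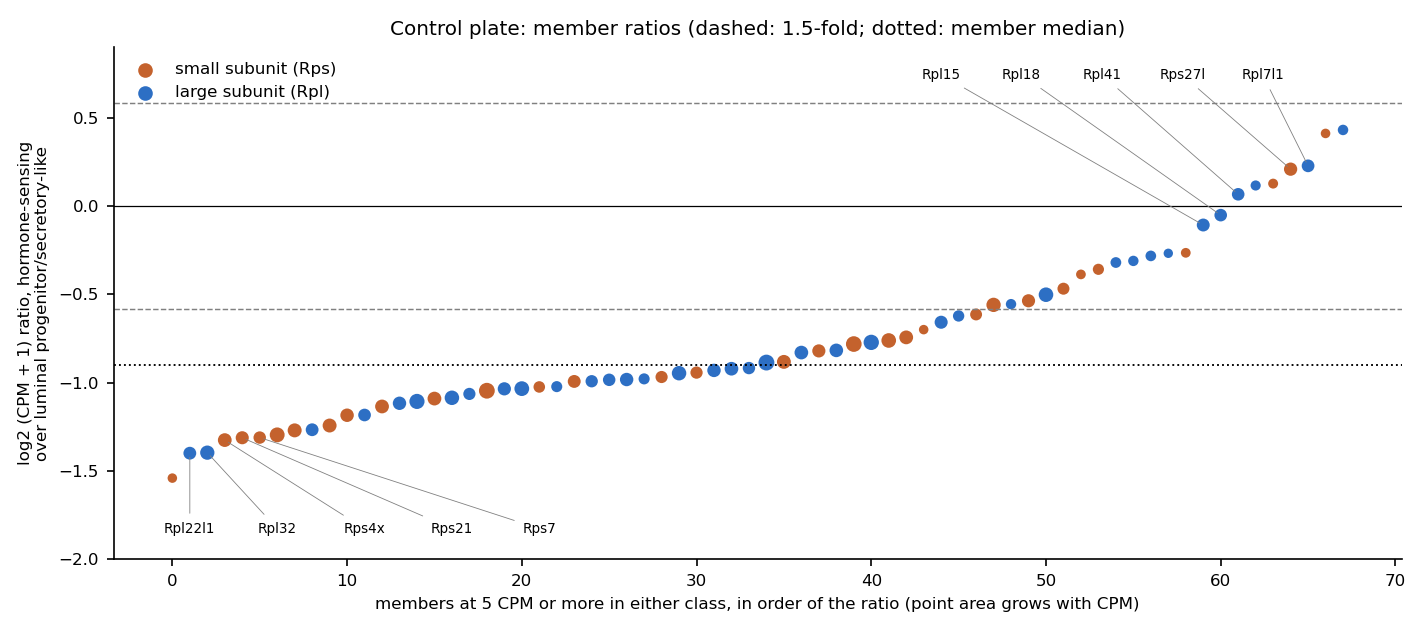
Log2 ratio of CPM plus 1, hormone-sensing over progenitor/secretory cells of the control plate, for each measured ribosomal protein gene in order of the ratio; the point area grows with CPM, dashed lines mark 1.5-fold and the dotted line the median. Most genes sit near the median of -0.90. Among genes at 50 CPM or more, Rpl7l1, Rps27l, Rpl41, Rpl18 and Rpl15 lie furthest above and Rpl22l1, Rpl32, Rps4x, Rps21 and Rps7 furthest below.

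Of 6 members taken by role, 5 were lower by over 1.5-fold in control hormone-sensing cells and Rps27a was not. Of all 68 measured members 48 were lower, as were 30.6% of all genes. Rplp0, the base of the stalk that recruits elongation factors, ranged from 57.3 to 2643 CPM with a median of 1087 in progenitor/secretory cells and from 42.998 to 969 with a median of 515 in hormone-sensing cells. Summed over control progenitor/secretory, control hormone-sensing and N1ICD-EGFP progenitor/secretory cells, Rplp0 stood at 1138, 528 and 1028 CPM. Its stalk partners showed the same order of the first 2 classes, with Rplp1 at 748, 364.6 and 795 CPM and Rplp2 at 173.7, 79.5 and 171.9 CPM. Rpsa, a small-subunit protein also described as a laminin receptor, stood at 52.4, 26.3 and 59.2 CPM. Rps6, the substrate of the S6 kinases, stood at 56.8, 29.05 and 63.3 CPM. Rps27a, a fusion of ubiquitin with a small-subunit protein, was read at only 7.19, 5.81 and 6.48 CPM, with a log2 ratio of -0.27 in hormone-sensing over progenitor/secretory control cells.

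Other genes of the translation machinery were compared from lists, to be read against the 30.6% lower and 27.1% higher of all genes. Of 22 further genes of translation, most with TOP mRNAs, 12 were lower and none higher by over 1.5-fold in control hormone-sensing cells, with a median log2 ratio of -0.70. Npm1, a nucleolar chaperone, stood at 409 and 164.2 CPM, Nap1l1, a histone chaperone, at 102.1 and 46.5 CPM, and Eif3e, an initiation factor subunit, at 301.04 and 141.3 CPM. RNA polymerase I and its factors had 7 of 12 lower and none higher (median -0.70), among them the subunit gene Polr1b (59.5 and 21.5 CPM) and the promoter factor gene Taf1b (38.3 and 10.7 CPM).
Ribosome biogenesis genes were split, with 5 higher and 10 lower of 35 and a median of -0.003. Bysl (15.3 and 38.2 CPM) and Ltv1 (42.1 and 87.2 CPM), which act in small-subunit maturation, were higher, while the pseudouridine synthase gene Dkc1 (72.03 and 25.7 CPM) and the large-subunit export adapter gene Nmd3 (109.2 and 51.2 CPM) were lower. Genes of the mitochondrial ribosome, which is built separately, had 17 higher and 7 lower of 75 and a median of 0.10. In mTOR and translation control, 5 of 20 were higher and 6 lower, with the cap-binding factor gene Eif4e at 43.04 and 129.4 CPM and its inhibitor gene Eif4ebp1 at 56.9 and 27.1 CPM. Myc stood at 130.7 and 10.8 CPM, a log2 ratio of -3.48, and its relative Mycl at 19.8 and 110 CPM. The mitochondrial ribosome and biogenesis lists thus had medians near that of all genes (-0.02), unlike the cytosolic ribosomal proteins. In the list of housekeeping genes outside translation, 7 of 11 were higher and 1 lower, with a median of 0.60.

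**Figure D3:**
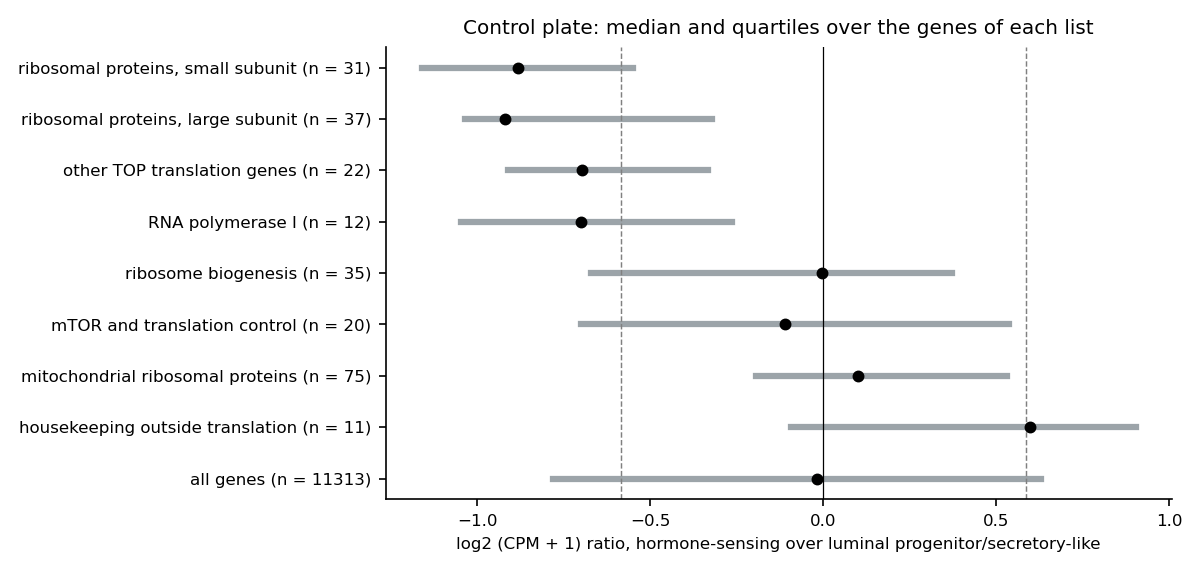
Log2 ratio of CPM plus 1, hormone-sensing over progenitor/secretory cells of the control plate, as the median (point) and quartiles (bar) over the genes of each list. Small-subunit (-0.88) and large-subunit (-0.92) ribosomal proteins, further translation genes (-0.70) and RNA polymerase I genes (-0.70) lie below the median of all genes (-0.02), and the mitochondrial ribosomal proteins (0.10) do not.

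Between plates, the ribosomal protein share of progenitor/secretory cells differed little. It was 2.40% in the N1ICD-EGFP and 2.03% in the control cells when reads were summed, 1.19-fold higher (log2 0.25) and short of the 1.5-fold set for a call. Per cell, 76.05% of the N1ICD-EGFP cells lay above the control median, and the N1ICD-EGFP cells ranged from 0.346 to 5.17%. The clusters of the class had medians of 1.82 to 2.16% in control and 2.24 to 2.66% in N1ICD-EGFP cells. The medians of well columns 1 to 12 and 13 to 24 were 2.13 and 1.95% in control cells, against 2.32 and 2.61% in N1ICD-EGFP cells, so the size of the difference varied with the region of the plate. Cells with and without a read of eGFP both had a median of 2.39%, and 66 cells held such a read. N1ICD-EGFP cells had fewer genes read (median 2511 against 3419) and fewer milk reads (0.608 against 3.91%), and the pan-leukocyte markers summed to 599 against 462 CPM. Of 6 measured pan-leukocyte genes 4 were higher by over 1.5-fold, with a median log2 ratio of 2.02. In the median cell the pan-leukocyte list went the other way, at 141.86 CPM in N1ICD-EGFP against 203.03 CPM in control cells. Basal markers summed to 363.3 against 82.7 CPM, dendritic markers to 182.8 against 10.7 CPM, T or NK markers to 23.2 against 2.17 CPM and fibroblast markers to 915 against 698 CPM, while macrophage markers summed to 27.9 against 37.7 CPM. In the median cell of both plates the basal, dendritic, T or NK and fibroblast lists stood at 0. The part of these in the difference was not tested, except that without milk genes the medians were 2.45 and 2.08%.

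Of 68 measured ribosomal protein genes, 7 were higher and 5 lower by over 1.5-fold in the N1ICD-EGFP progenitor/secretory cells, against 23% and 17.7% of all genes. The median log2 ratio was 0.16, against 0.096 over all genes. In well columns 13 to 24 alone 21 genes were past the fold, 17 of them higher. The share over all genes was not computed for these columns, so that count has no background to be read against.

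Rps15a, a small-subunit protein, was the ribosomal protein gene furthest below the others. It ranged from 13.9 to 1838 CPM with a median of 243.1 in control and from 0 to 1738 CPM with a median of 101.95 in N1ICD-EGFP progenitor/secretory cells. Of the N1ICD-EGFP cells, 93.4% lay under the control median and 77.8% under the control lower quartile. Summed, Rps15a stood at 260.6 and 121.6 CPM, a log2 ratio of -1.09. The 5 control clusters of the class held 234.2 to 271.9 CPM and the 4 N1ICD-EGFP clusters 93.7 to 150.9 CPM, with no overlap, and well columns 13 to 24 and 1 to 12 held 254.9 and 265.5 against 126.2 and 116.9 CPM. Summed levels were also lower in the other N1ICD-EGFP classes, with 118.04 against 46.5 CPM in hormone-sensing cells and 265.3 against 129.2 CPM in leukocyte-like cells. Among N1ICD-EGFP leukocytes, Rps15a stood at 204.1 CPM in B, 255.6 CPM in T or NK and 45.3 CPM in macrophage-like cells. The plates held different mixes of leukocytes, so plate and mix cannot be told apart in the leukocyte-like values. A row named as an Rps15a pseudogene, Rps15a-ps4, stood at 16.3 and 5.51 CPM in progenitor/secretory cells. Another such row, Rps15a-ps6, went the other way, at 4.17 and 6.43 CPM.

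Other members below the rest were Rpl15 (108.8 and 58.7 CPM, log2 -0.88), which was read in 31.1% of N1ICD-EGFP cells, and Rps2 (137.7 and 87.1 CPM, -0.65), a small-subunit protein near the mRNA entry channel. Rpl39, which lines the exit tunnel of the large subunit, stood at 216.03 and 147.5 CPM (-0.55), and Rps21 at 125.97 and 98.8 CPM (-0.35). Rps2 and Rpl39 were lower in all 3 classes, with log2 ratios of -0.93 and -0.56 in hormone-sensing and -0.57 and -0.85 in leukocyte-like cells. The mix of leukocytes differed between plates.

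On the other side, Rps25, a small-subunit protein with a role in internal initiation, ranged from 0 to 191.3 CPM with a median of 41.8 in control and from 0 to 493 CPM with a median of 77.6 in N1ICD-EGFP progenitor/secretory cells. Summed, Rps25 stood at 45.2 and 86.04 CPM (log2 0.91), and 77.2% of the N1ICD-EGFP cells lay above the control median. Rps7, a small-subunit protein that binds the p53 regulator Mdm2, ranged from 0 to 370 CPM with a median of 62.5 and from 0 to 376.4 CPM with a median of 112.2. Summed, Rps7 stood at 69.3 and 125.3 CPM (0.85), with 83.8% of cells above the control median. For both genes the ranges overlapped and the medians were apart. The large-subunit genes Rpl6 (71.8 and 113.95 CPM, 0.66), Rpl4 (2681 and 4060 CPM, 0.60) and Rpl13 (84.2 and 125.99 CPM, 0.58) followed. Rps25 and Rps7 were also higher in N1ICD-EGFP leukocyte-like cells (log2 1.04 and 0.97) and stood at 0.46 and 0.63 in the few hormone-sensing cells. The mix of leukocytes differed between plates. Within the N1ICD-EGFP plate, Rps25 stood at 44.8 CPM in macrophage-like and 164.3 CPM in T or NK-like cells, and Rps7 at 58.4 and 237.7 CPM.

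**Figure D4:**
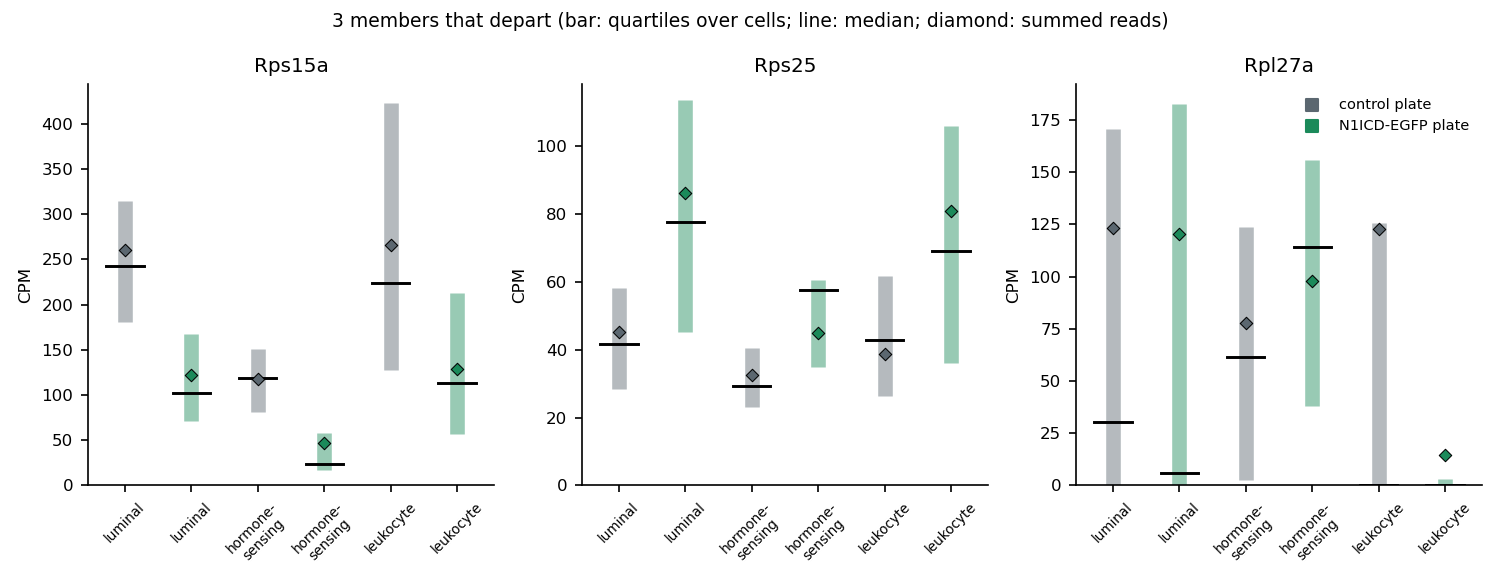
CPM per cell of Rps15a, Rps25 and Rpl27a by plate and cell class (bar: quartiles, line: median, diamond: reads summed over cells). Rps15a is lower in each N1ICD-EGFP class than in the control class of the same name, Rps25 is higher, and Rpl27a has a median of 0 in leukocyte-like cells of both plates.

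The further translation genes stood close to their control level in N1ICD-EGFP progenitor/secretory cells, with 1 of 22 higher (Eef1d, an elongation factor subunit, at 277.3 and 455 CPM) and none lower. Of 35 ribosome biogenesis genes 11 were higher and 2 lower, with a median log2 ratio of 0.42. Rrp9, a subunit of a nucleolar small RNA particle, stood at 22.01 and 60.05 CPM, and Nmd3 at 109.2 and 52.1 CPM. Myc stood at 130.7 and 236.9 CPM. Milk protein genes were lower in 6 of 6. Over all genes, 23% were higher and 17.7% lower.

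Leukocyte-like cells differed from each other more than they differed as a whole from luminal cells. In the N1ICD-EGFP plate, B-like cells ranged from 1.28 to 4.00% with a median of 2.40%, T or NK-like cells from 2.46 to 5.75% with a median of 3.26%, and macrophage-like cells from 0.314 to 1.66% with a median of 1.08%. All 8 T or NK-like cells lay above the median (2.39%) of the progenitor/secretory cells of the plate, all 19 macrophage-like cells lay under its lower quartile, and 11 of 21 B-like cells lay above its median. The same order of T or NK and macrophage cells stood in the control plate when its 24 leukocyte-like cells were split by their highest marker list, with a median of 2.06% in 10 T or NK and 1.06% in 10 macrophage cells. The 3 control cells highest in B cell markers had a median of 2.45%, above the T or NK cells, the reverse of the order of B and T or NK cells in the N1ICD-EGFP plate. The 19 macrophage-like cells of that plate include 4 highest in dendritic markers, with a median of 1.37%, against 0.897% in the other 15. Median genes per cell were 1580 in B, 1856 in T or NK and 3195 in macrophage-like cells, and the part of this in the share was not tested.

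In macrophage-like cells 61 of 68 ribosomal protein genes were lower by over 1.5-fold than in progenitor/secretory cells of the plate and 2 higher, against 52.8% and 25.7% of all genes. In T or NK-like cells 36 of 73 were higher and 4 lower, against 26.3% and 62.5%. In B-like cells 13 of 69 were higher and 8 lower, against 27.6% and 55.2%. For the leukocytes of the plate together 5 of 69 were higher and 17 lower, against 29.1% and 44.3%, and their median log2 ratio of -0.33 equalled that of all genes. In the control plate 24 of 67 were lower and none higher, against 43.6% and 30.6%. The summed leukocyte values therefore depend on which leukocytes a plate held. The share of control leukocytes against progenitor/secretory cells was -0.29 on the log2 scale over all wells, -0.52 in well columns 1 to 12 and 0.02 in columns 13 to 24.

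Rpl27a, a large-subunit protein, was the member furthest below the others in N1ICD-EGFP leukocytes. It ranged from 0 to 1235 CPM with a median of 6.17 in progenitor/secretory cells and from 0 to 336.8 CPM with a median of 0 in 48 leukocytes, of which 27 held no read. Summed, Rpl27a stood at 120.55 and 14.7 CPM, a log2 ratio of -2.95, with 12.4 CPM in B, 10.01 CPM in T or NK and 17.5 CPM in macrophage-like cells. The control leukocytes also had a median of 0, with 11 of 24 cells read. Their summed level was 122.98 CPM, from cells reaching 834 CPM, beside 123.48 CPM in control progenitor/secretory cells. A gap in the summed level was thus seen in the N1ICD-EGFP plate alone. Rpl27a was read in 8 of 21 B, 3 of 8 T or NK and 10 of 19 macrophage-like cells, with highest cells of 336.8, 66.3 and 131.2 CPM.
Rps6 stood at 63.3 CPM in progenitor/secretory cells and 20.1 CPM in leukocytes (log2 -1.61), and 17 of 48 leukocytes held a read. Rpl22, a large-subunit protein that is not needed for translation as such, stood at 507 and 218.5 CPM (-1.21), with 135.2 CPM in macrophage-like cells. Rps27l stood at 127.8 and 58.4 CPM (-1.12): 2 of 21 B-like and 2 of 8 T or NK-like cells held a read, against 17 of 19 macrophage-like cells. Rps27l was thus read in most macrophage-like cells and in few lymphocytes, the reverse of the order of the summed share. Rpl15 stood at 58.7 and 24.5 CPM (-1.22), and 1 cell held 48.1% of its leukocyte reads.

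Members above the rest in N1ICD-EGFP leukocytes included Rpl13a, a large-subunit protein also known from an interferon-gamma response, at 757 and 908 CPM. It ranged from 407 to 2427 CPM in B, from 1048 to 3683 CPM in T or NK and from 54.9 to 883 CPM in macrophage-like cells, so that no macrophage-like cell reached the lowest T or NK-like cell. Rpl7l1 stood at 79.4 and 105.4 CPM, Rps15a at 121.6 and 129.2 CPM and Rpl37a at 79.2 and 80.1 CPM. Rplp0 departed from its stalk partners in B-like cells, at 505.5 CPM against 1028 CPM in progenitor/secretory cells, where Rplp1 stood at 601 and 795 CPM and Rplp2 at 195.02 and 171.9 CPM.

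The members differed far more among themselves than between classes. Per kilobase of coding sequence in control progenitor/secretory cells, the upper end held Rps3, Rplp1, Rpl4 and Rpl8. Rps3, which sits at the mRNA entry channel and also has a role in DNA repair, stood at 2889, Rplp1 at 2187, Rpl4 at 2133 and Rpl8 at 1815 CPM per kb. At the lower end, Rpl27 stood at 1.90, Rpl28 at 1.24, Rpl3l at 0.371, Rpl39l at 0.370 and Rpl10l at 0.206 CPM per kb. In all, 17 of the 84 genes lay under 5 CPM in these cells, among them genes of standard ribosome components such as Rpl11, Rpl23a, Rpl24, Rpl30, Rps23 and Rps29.

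The level per kb was set beside the sequence that a gene shares with others. Stretches shared only with a gene that overlaps the member's own place in the genome were not counted as shared. Counting them would raise the share from 40.1 to 95.1% in Rpl35 and from 48.5 to 93.8% in Rpl5. Of all 50-base stretches in a member's mRNA (GENCODE vM21), the share also found in other, non-overlapping genes was 2.96% for Rps3, 7.86% for Rpl8 and 16.5% for Rpl4. It was 98.6% for Rps27, which stood at 23.8 CPM per kb. Single genes also went the other way: Rplp1, at 2187 CPM per kb, had 60% shared, and Rpl3l and Rpl39l, at 0.371 and 0.370 CPM per kb, had 0% shared. The 38 members with under 50% shared had a median of 525 CPM per kb, and the 43 with 50 to 90% one of 76.1 CPM per kb. Over the 83 genes with a transcript, the Spearman correlation of the shared part with the level was -0.44. These genes share annotation and library, and how the authors counted reads that fit several places is not given in the sources used here. Levels of members with near-identical copies are therefore uncertain.

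**Figure D5:**
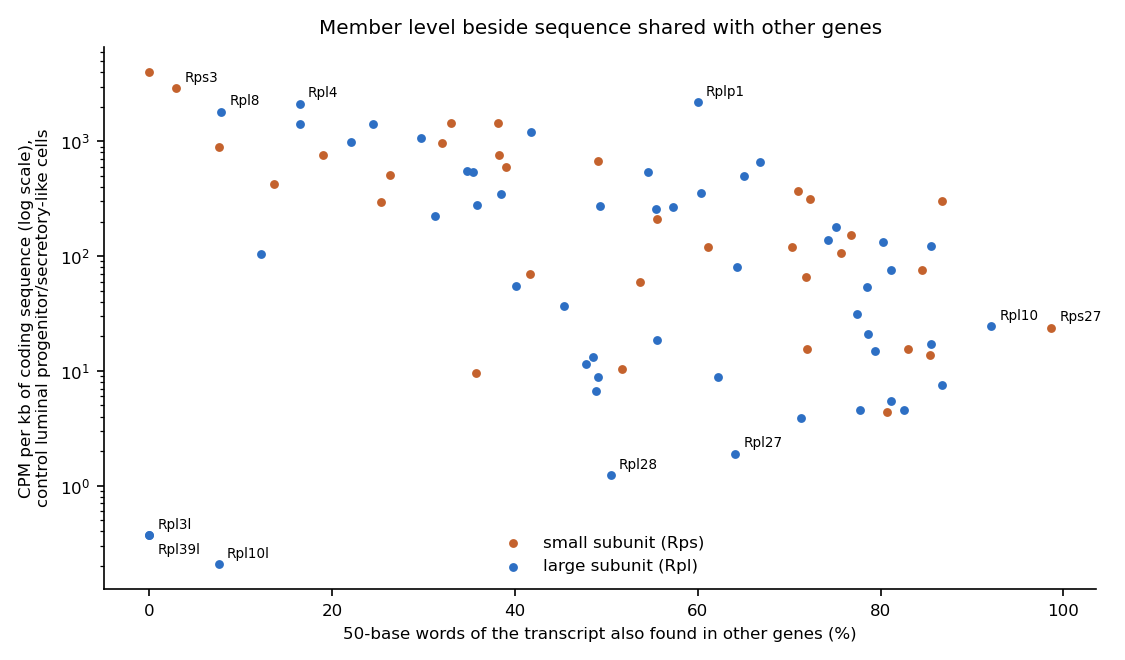
Level in control progenitor/secretory cells (CPM per kb of coding sequence, log axis) against the share of each gene's 50-base stretches also found in other genes (%), with 1 point per ribosomal protein gene. Other genes are those that do not overlap the gene's own place in the genome. Rps3, with 2.96% shared, stands at 2889 CPM per kb, and Rps27, with 98.6% shared, at 23.8.

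The set holds 7 paralogs. Rpl3l, known from skeletal and heart muscle, stood at 0.453 CPM in control and 4.74 CPM in N1ICD-EGFP progenitor/secretory cells, where 1 cell held 99.3% of its reads. Rpl10l and Rpl39l, known from the testis, stood at 0.132 and 0.0566 CPM in control progenitor/secretory cells. Rps4l stood at 7.41 CPM in control progenitor/secretory, 8.18 CPM in hormone-sensing and 15.1 CPM in N1ICD-EGFP progenitor/secretory cells. The pair partners Rpl3 (146.8, 71.1 and 213.1 CPM), Rpl7 (553, 260 and 771 CPM) and Rpl22 (540, 280 and 507 CPM) were lower in hormone-sensing than in control progenitor/secretory cells. Rpl22 and Rpl22l1 were thus lower together, whereas Rpl7 was lower and Rpl7l1 was not when all cells were kept. Without possible doublets Rpl7l1 was lower too, at a log2 ratio of -0.74.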

How the data were processed

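Per the labels, each well is 1 cell, and the authors deposited raw read counts per gene and cell. STAR and mm10 are named in the submitters' processing notes. Not given in the sources used here: their versions, the counter, its annotation and whether it used strand. Both tables hold 24490 rows. The 492 rows with a repeated name were summed and the eGFP row was set apart. Each plate was clustered without the ribosomal protein genes (scanpy 1.11.5, Leiden, 2000 variable genes, 15 principal components, 15 neighbours, resolution 0.8). Clusters were named by raised markers. Doublets were not called on these sorted cells, but an alternative left out cells with many genes as possible doublets. Reads were summed by class and scaled to CPM. A gene at 5 CPM or more in either group was called past a CPM ratio of 1.5. Intervals are Clopper-Pearson intervals. The 1.5-fold call was tested on simulated summed counts that held counting error only. Variation between cells, clustering and class naming were not part of that simulation.

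The genes named are the 5 furthest above and the 5 furthest below the members' median in each comparison (50 CPM or more), the 5 highest and the 5 lowest per kb of coding sequence, the paralogs with their partners, 6 fixed members, and up to 3 genes of each other list per direction. Rps9 and the examples of members under 5 CPM were picked after their values were seen. The members and lists were chosen with earlier results of these data known, and the tie rules of class naming were set after the data were seen. Some members named by this rule are not reported here.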

Additional observations from a re-analysis of the deposited data

Results flagged for a closer look

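A row named as a pseudogene and so outside the rule, Rpl14-ps1, carried more reads than the median ribosomal protein gene, which stood at 70.5 CPM in control progenitor/secretory cells. It stood at 278.1 CPM in control progenitor/secretory cells, 145.8 CPM in hormone-sensing cells and 250 CPM in N1ICD-EGFP progenitor/secretory cells. It was singled out because signal appeared in a row outside the members, which entered the member reads in 1 alternative alone.

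Rpl15 went in opposite directions between plates in the luminal classes. Its log2 ratio, N1ICD-EGFP over control, was 1.01 in hormone-sensing cells (100.9 and 204.6 CPM) and -0.88 in progenitor/secretory cells (108.8 and 58.7 CPM). The difference was not tested, and the N1ICD-EGFP plate held 7 hormone-sensing cells, of which 6 held an Rpl15 read.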

How the results depend on the processing

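The lower ribosomal protein share of control hormone-sensing cells stayed past 1.5-fold in all 17 alternatives, with log2 ratios of -0.96 to -0.78, and 44 to 53 members were lower over 20 alternatives. The share of N1ICD-EGFP over control progenitor/secretory cells stayed short of the fold in 18 alternatives, at 0.13 to 0.37. The number of members past the fold there was 12 and became 21 in well columns 13 to 24 alone. Other alternatives gave 9 or more, and the leukocyte comparison gave 15 to 31 members. Shares over all genes were not computed for the alternatives.

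The leukocyte values changed with the cells taken, in alternatives added after seeing the data. With macrophage-like cells only, the log2 share against progenitor/secretory cells was -1.23 in the N1ICD-EGFP plate (-0.36 with all leukocytes). With cells highest in macrophage markers it was -1.05 in the control plate (-0.29). With cells highest in T or NK markers, N1ICD-EGFP over control leukocytes was 0.74 (0.18). For 30 named members, 514 of 533 alternative values kept their direction and side of the fold, 8 were weaker, 10 stronger, and 1 reversed, Rpl7l1 at -0.74 without possible doublets (0.23 with all cells). The cause was not tested.

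No paired analysis was possible because each genotype is 1 plate and the result comes from no test. Members under 5 CPM in both groups were not counted, and why they are low was not tested.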

Other observations

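Cells outside the compared classes held intermediate or high ribosomal protein shares. The 7 basal-like cells of the control plate, which carried Krt5, Krt14 and smooth muscle genes, ranged from 1.02 to 2.20% with a median of 1.67%. The 61 cells of the unnamed clusters of the N1ICD-EGFP plate had a median of 2.64%. Both unnamed clusters were raised in Kit, Elf5, Aldh1a3, Ehf and Mfge8, and the smaller also in the milk genes Csn1s1, Csn2 and Csn3. Progenitor markers summed to 7817 CPM in the unnamed cells and 14934 CPM in the progenitor/secretory cells of the plate. Rpl36al, a gene encoding a near-copy of a large-subunit protein whose name falls outside the rule, stood at 47.2 CPM in control progenitor/secretory and 81.7 CPM in control hormone-sensing cells.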
